A study of Mus musculus with 113 samples.

Results

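The nuclear receptor (NR) family holds, beside the factors silenced or edited in these mouse embryos (*Nr5a2*, *Rarg*, *Nr1h3* and *Nr2c2*) and their closest paralogs, a further 37 genes that were listed by name and followed among the 24006 genes of each expression file. The 37 members fall into 9 subfamilies: estrogen-related receptors, steroid receptors, retinoid X receptors (RXR), RXR partners and ligand sensors, REV-ERB and ROR receptors, the HNF4, TLX, PNR and COUP-TF group, NR4A receptors, GCNF, and the members that lack a DNA-binding domain. The list was drawn up by name, with no limit on expression.

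Most NRs carry a zinc-finger DNA-binding domain that reads a short hexamer and a ligand-binding domain that recruits coactivators or corepressors. Many bind DNA as heterodimers with an RXR, and the orphan receptors, among them NR5A2, the estrogen-related receptors and GCNF, can bind as monomers or homodimers without a known hormone. In the early mouse embryo the maternal RNA store is degraded around the 2-cell (2C) stage while the embryonic genome is switched on, so that NR transcripts can be maternal or embryonic in origin.

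Libraries were made with Smart-seq2, which copies full-length RNA from very small inputs, and 92 of the 113 samples of the series had gene expression values, given as FPKM (fragments mapped to a gene, scaled by its length and by the fragments of the library). Embryos came from C57BL/6N females, 5 to 6 weeks old, mated with PWK/PhJ males, and the labels call them wild type. In 32 libraries, 16 groups of 2, embryos injected with siRNA as zygotes were pooled (5 to 10 embryos each), and in the other 60 libraries single embryos were sequenced. In all, 34 libraries were at 2C, 4 at the 4-cell (4C) and 54 at the 8-cell (8C) stage.

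The siRNA groups each had negative control siRNA (NC) pools of their own experiment. Quadruple knockdown (4KD, siRNAs to *Nr5a2*, *Rarg*, *Nr1h3* and *Nr2c2*) was collected at 4C and 8C with NC siRNA at 20 µM. Triple knockdown (3KD), leaving out 1 of the 4 targets at a time, was collected at 8C with NC at 15 µM. Knockdown (KD) of each target alone was collected at 8C with NC at 5 µM, and *Nr5a2* KD at 2C had siRNA and NC both at 20 µM. In the other KD groups the labels give 5 µM for the siRNA to each target, and the study's methods give 1 concentration for all NC groups where the labels give 3. Single embryos received base editor (BE) mRNA with *Nr5a2* sgRNA (14 libraries at each stage), BE mRNA alone (8 at each stage) or sgRNA alone (8 at each stage), the mRNA at 100 ng/µl according to the labels; the latter groups served as controls. The column names give the editor names eBE and BE4, where the study's methods name only 1 editor. Whether the embryos received different editors cannot be told from the labels. The siRNA lowers RNA without removing the gene, and injected embryos were not shown by these values to be uniformly depleted or edited.

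Libraries held 5472 to 11921 genes at 1 FPKM or more, the lowest being replicate 8 of the 8C BE + sgRNA group, without which 0 members were still called in that comparison, and relative depth, read from the step between the lowest values of a gene, ranged from 0.363 to 1.52 of the median library. Absolute depth is unknown. At 8C the *Nr5a2* level was 27.1 to 50.2 FPKM in the NC pools and 3.90 to 12.8 FPKM in the pools given *Nr5a2* siRNA, at 4C it was 26.8 and 31.7 FPKM in NC and 3.98 and 17.6 FPKM after 4KD, and at 2C it was 19.4 and 24.3 FPKM in NC and 2.72 and 6.13 FPKM after KD. *Rarg* was less clearly lowered, since 1 NC pool of the 3KD experiment held 2.18 FPKM and the *Rarg*-depleted 8C pools ranged from 1.61 to 5.47 FPKM. Base editing changes the sequence and not necessarily the amount of a transcript, so *Nr5a2* FPKM does not check it. Of 10 cumulus and granulosa cell markers, *Amhr2* was above 0 in all 92 libraries (median 14.4 FPKM), whereas the other 9 were at 0 in 30 (*Star*) to 90 (*Fshr*) of them. The highest values of those 9 ran from 0.686 FPKM (*Lhcgr*) to 18.7 FPKM (*Star*) and 27.2 FPKM (*Cyp11a1*). Replicates are separate libraries, and p-values measure the spread between them. In pools a lower value can mean fewer expressing cells or less RNA per cell, and these cannot be told apart.

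For 3 single-embryo libraries the column name gives the 4C stage while the label gives another: replicate 8 of the 2C sgRNA group and replicates 13 and 14 of the 8C BE + sgRNA group. The 2C library also stood apart in its values. Its summed FPKM over 5 markers of 2-cell embryos was 3.73, compared with 56.0 to 1366 in the other 15 control libraries labelled 2C, and its sum over 5 oocyte markers was 35.1, compared with 227 to 2792. The 2C to 8C comparison is therefore also given without it. In the 8C BE + sgRNA libraries named 4C the oocyte marker sum was 129 and 272 FPKM, compared with at most 143 FPKM in the other 12 of that group, and the cumulus marker sum was 49.4 and 39.5 FPKM, compared with at most 30.1 FPKM. The sum over the 2-cell markers (124 and 37.4 FPKM) lay within the range of those 12, which reached 275 FPKM.

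In at least 1 of the 22 groups, 21 of the 37 members had a mean of at least 1 FPKM and 12 had a mean of at least 5 FPKM (*Esrrb*, *Esrrg*, *Esr2*, *Rxra*, *Rxrb*, *Ppard*, *Nr1d1*, *Nr1d2*, *Rora*, *Nr2e1*, *Nr4a1* and *Nr6a1*). The number of members with a group mean of at least 1 FPKM was 15 to 18 in the 2C groups, 8 to 9 in the 4C groups and 7 to 10 in the 8C groups. Single control embryos (BE mRNA alone or sgRNA alone, 16 at each stage) had different leading members at 2C and at 8C. At 2C the order of mean levels was led by *Nr6a1* (22.9 ± 9.68 FPKM, SD, n = 16), followed by *Nr2e1* (11.2 ± 9.28), *Nr1d1* (7.58 ± 6.69), *Esrrg* (6.56 ± 3.61), *Ppard* (6.51 ± 4.53), *Esr2* (5.31 ± 3.78), *Rora* (5.06 ± 5.84) and *Esr1* (4.09 ± 1.93). From *Nr2e1* downward, each gap between neighbours in that order was smaller than their SDs. At 8C the order was led by *Esrrb* (10.7 ± 4.37 FPKM), *Rxrb* (9.61 ± 5.84), *Nr1d2* (7.41 ± 3.41), *Rxra* (5.28 ± 2.39), *Nr1d1* (3.90 ± 2.84), *Nr6a1* (3.49 ± 2.05), *Nr4a1* (2.50 ± 1.95) and *Esrra* (2.46 ± 1.26), and there too no neighbours differed by more than their spread.

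**Figure D1:**
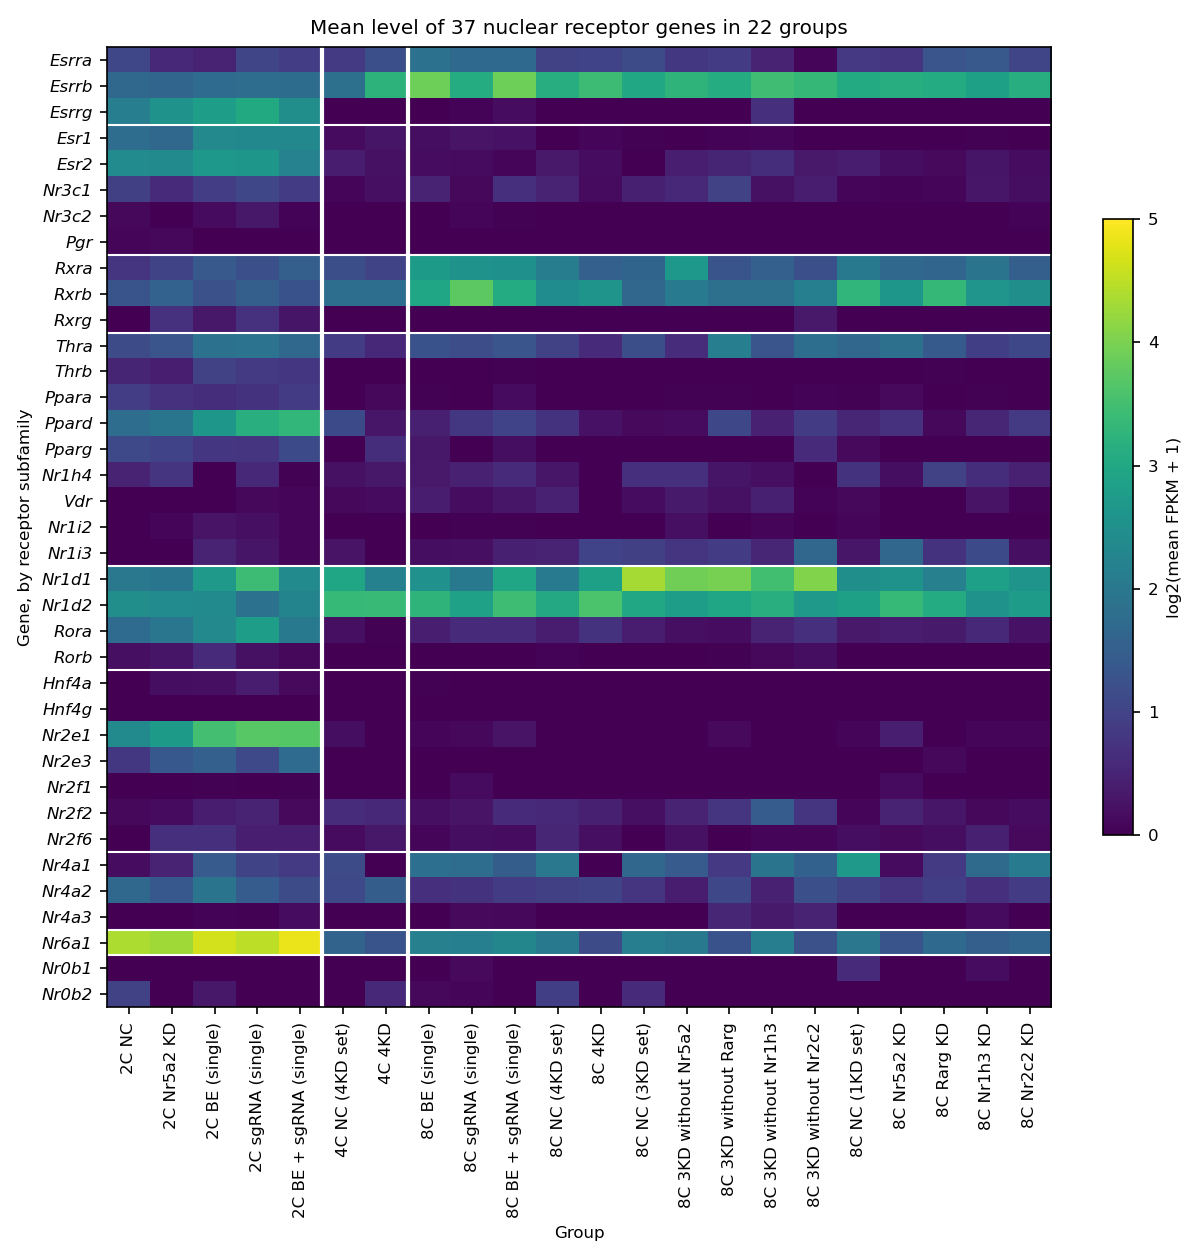
Group means of the 37 members (rows, white lines between subfamilies) in the 22 groups (columns, thick white lines between 2C, 4C and 8C), with log2 of the mean FPKM + 1 as colour. *Nr6a1*, *Nr2e1*, *Esrrg*, *Esr2* and *Ppard* are brighter in the 2C columns, while *Esrrb*, *Rxrb* and *Nr1d2* are among the brightest rows in the 8C columns of NC, KD and edited embryos.

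The question of how the members change between 2C and 8C was addressed in the single control embryos. Of the 18 members that passed the expression filter (a mean of at least 1 FPKM in at least 1 of the groups compared), 5 rose and 12 fell at an adjusted p under 0.05 (limma on log2(FPKM + 1), Benjamini-Hochberg over 12824 genes), on a background of 72.6% of all genes called, 29.2% higher and 43.4% lower. A member that entered the test only through the stage at which it is high had to differ, so these counts describe the tested members and not the family. This holds for *Esrrg*, *Esr1*, *Esr2*, *Nr3c1*, *Ppard*, *Rora*, *Nr2e1*, *Nr2e3* and *Nr4a2*. Their means were under 1 FPKM in each control group at 8C, so the filter fixed their direction and their p-values below do not support it. The median change was -0.78 on the log2 scale over the tested members and -0.31 over all genes (-0.45 after median-ratio scaling), and a change is read against that shift. Changes are differences of log2(FPKM + 1), 8C minus 2C, which understate the change of low genes.

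Among the estrogen-related receptors, *Esrrb* and *Esrra* rose and *Esrrg* fell. *Esrrb*, an orphan receptor of pluripotent and trophoblast cells, ranged from 0.843 to 4.95 FPKM at 2C (median 2.36) and from 2.69 to 19.7 FPKM at 8C (median 10.1). The ranges overlapped in part, and the change was 1.75 ± 0.20 (SE, adjusted p = 2.22e-09, limma). At 8C the controls differed among themselves, since *Esrrb* averaged 13.8 ± 3.44 FPKM (SD, n = 8) after BE mRNA alone and 7.55 ± 2.56 FPKM (n = 8) after sgRNA alone. *Esrra*, which drives mitochondrial genes, had a median of 0.452 FPKM at 2C (0 to 4.15) and 2.40 FPKM at 8C (0.915 to 4.88), a change of 1.06 ± 0.21 (adjusted p = 4.53e-05). The 2C maximum of *Esrra* was the library named 4C, and without it the 2C embryos reached at most 1.34 FPKM. *Esrrg*, the third paralog, was the only tested member whose stages did not overlap with all libraries kept. It was above 0 in all 16 embryos labelled 2C (0.300 to 17.2 FPKM, median 6.54) and was listed at 0 in 15 of 16 embryos at 8C, where the highest value was 0.281 FPKM. Of all genes, 2.43% were lower without overlap, and the change was -2.72 ± 0.22 (adjusted p = 5.87e-13, limma). The 2C minimum of *Esrrg* was the library named 4C, without which the lowest 2C value was 3.44 FPKM. Without it *Nr6a1* (2C at least 15.9 FPKM, 8C at most 7.46 FPKM) and *Esr1* (1.87 and 0.829 FPKM) did not overlap either. The same held for *Esr2* (1.37 and 0.632 FPKM) and *Nr2e1* (0.822 and 0.318 FPKM). *Rxrb* did not overlap in the other direction (2C at most 3.99 FPKM, 8C at least 4.48 FPKM). The share of all genes without overlap was not counted without that library.

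Both retinoid X receptors that passed the filter rose. *Rxrb* ranged from 0 to 5.35 FPKM at 2C (median 0.820) and from 4.48 to 22.3 FPKM at 8C (median 6.86), with a change of 2.12 ± 0.28 (adjusted p = 2.54e-08, limma). Here the control groups ran the other way from *Esrrb*: 8C embryos with sgRNA alone averaged 12.4 ± 7.17 FPKM and those with BE mRNA alone 6.79 ± 1.85 FPKM (SD, n = 8 each). The difference lay mostly in 4 sgRNA embryos whose library numbers fall with those of the libraries named BE4 (mean 17.0 FPKM). The 4 whose numbers fall with the libraries named eBE averaged 7.86 FPKM. The BE mRNA embryos averaged 7.10 FPKM where named BE4 and 6.47 FPKM where named eBE. *Rxra*, the other common heterodimer partner of RAR and LXR receptors, went from 0 to 3.34 FPKM at 2C (median 1.46) to 0.219 to 9.06 FPKM at 8C (median 5.34), a change of 1.29 ± 0.24 (adjusted p = 1.56e-05). *Rxrg* stayed under 1 FPKM on average in all 22 groups, and in single control embryos it was above 0 in 7 of 16 at 2C (up to 2.92 FPKM) and in 0 of 16 at 8C.

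The receptors for estrogens and glucocorticoids fell. *Esr1* (estrogen receptor alpha) had a median of 4.23 FPKM at 2C (0 to 8.61) and was listed at 0 in 9 of 16 embryos at 8C, where the highest value was 0.829 FPKM. Only the library named 4C held no *Esr1* at 2C. The change was -2.02 ± 0.21 (adjusted p = 2.83e-10, limma). *Esr2* (estrogen receptor beta) ranged from 0.129 to 13.2 FPKM at 2C (median 4.21) and from 0 to 0.632 FPKM at 8C (12 of 16 at 0), a change of -2.26 ± 0.25 (adjusted p = 1.26e-09). *Nr3c1*, the glucocorticoid receptor, was lower throughout, with a median of 1.01 FPKM at 2C (0.0518 to 2.14) and 0.0190 FPKM at 8C (0 to 1.28), a change of -0.66 ± 0.17 (adjusted p = 0.000715). The 2 other steroid receptors of the list, *Nr3c2* and *Pgr*, were under 1 FPKM on average in every group.

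Of the RXR partners and ligand sensors, *Ppard* and *Thra* passed the filter and fell. *Ppard*, a fatty acid sensor, ranged from 1.33 to 19.4 FPKM at 2C (median 5.51) and from 0.0950 to 1.81 FPKM at 8C (median 0.521), and the stages overlapped only at their ends. The change was -2.11 ± 0.23 (adjusted p = 7.74e-10, limma). *Thra* (thyroid hormone receptor alpha) changed less, by -0.67 ± 0.21 (adjusted p = 0.00556), with a median of 2.56 FPKM at 2C (0.565 to 6.95) and 1.45 FPKM at 8C (0 to 2.94).

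The REV-ERB receptors NR1D1 and NR1D2 are heme-binding repressors of the circadian clock, and RORA activates through related elements. *Nr1d2* rose and *Rora* fell. *Nr1d2* ranged from 0.952 to 11.1 FPKM at 2C (median 2.59) and from 2.75 to 17.2 FPKM at 8C (median 6.68), a change of 1.01 ± 0.24 (adjusted p = 0.000385, limma). *Rora* ranged from 0 to 23.9 FPKM at 2C (median 2.96) and from 0 to 2.02 FPKM at 8C (median 0.129), a change of -1.71 ± 0.31 (adjusted p = 8.49e-06). For *Nr1d1* the stages overlapped widely, from 1.35 to 28.9 FPKM at 2C (median 6.32) and from 0.112 to 9.93 FPKM at 8C (median 2.80). Its change of -0.76 ± 0.31 (adjusted p = 0.0279) was the weakest of the calls.

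*Nr6a1* and *Nr2e1*, the 2 members with the highest means at 2C, are shown here with the promoter windows in which a full cyclic AMP response element lies. NR6A1 (GCNF) is an orphan receptor known for silencing *Pou5f1* in differentiating cells, and NR2E1 (TLX) is an orphan receptor of neural stem cells. The windows run from 250 bases before to 50 bases after the annotated start (RefSeq, GRCm38.p6), 5′ to 3′ on the gene's strand, at chr2:38926412-38926711 (minus strand) for *Nr6a1* and chr10:42583541-42583840 (minus strand) for *Nr2e1*, and the capitals mark TGACGTCA.
Nr6a1: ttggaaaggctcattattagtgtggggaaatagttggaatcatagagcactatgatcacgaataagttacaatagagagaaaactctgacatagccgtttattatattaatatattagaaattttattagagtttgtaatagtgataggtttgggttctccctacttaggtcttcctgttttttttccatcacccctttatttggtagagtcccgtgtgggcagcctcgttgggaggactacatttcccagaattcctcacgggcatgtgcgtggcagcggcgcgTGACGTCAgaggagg
Nr2e1: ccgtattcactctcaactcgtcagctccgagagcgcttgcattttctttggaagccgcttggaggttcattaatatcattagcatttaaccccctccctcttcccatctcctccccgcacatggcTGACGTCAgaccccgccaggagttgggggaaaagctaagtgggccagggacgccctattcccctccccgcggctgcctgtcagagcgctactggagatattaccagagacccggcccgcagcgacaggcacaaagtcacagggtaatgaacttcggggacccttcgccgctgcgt
This palindrome, read on both strands, was in 1.79% of 32851 RefSeq promoter windows and in 2 of 49 windows of the members, these being the 2. In the printed *Nr6a1* window the match begins 35 bases after the annotated start. A second *Nr6a1* start, at lower coordinates on chromosome 2, had no match. The letters are a description and not evidence that a factor binds there.

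The level of *Nr6a1* ranged from 2.43 to 37.6 FPKM at 2C (median 19.9) and from 0.880 to 7.46 FPKM at 8C (median 2.96). The lowest 2C value was the library named 4C, and the change was -2.38 ± 0.27 (adjusted p = 1.75e-09, limma). *Nr6a1* did not vanish, since 15 of 16 embryos at 8C still held at least 1 FPKM. *Nr2e1* by contrast was all but lost: it ranged from 0 to 29.2 FPKM at 2C (median 9.01) and from 0 to 0.318 FPKM at 8C (9 of 16 at 0). The change was -2.98 ± 0.35 (adjusted p = 3.06e-09), the largest of the members, and the single 2C embryo at 0 was again the library named 4C. *Nr2e3*, the photoreceptor paralog of *Nr2e1*, ranged from 0 to 6.00 FPKM at 2C (median 1.11) and was listed at 0 in all 16 embryos at 8C, so that no fold is given (adjusted p = 2.46e-06).

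Of the NR4A receptors, which are encoded by immediate-early genes and have no open ligand pocket, *Nr4a2* fell. It ranged from 0.136 to 8.37 FPKM at 2C (median 1.80) and from 0 to 1.36 FPKM at 8C (median 0.540), a change of -0.80 ± 0.24 (adjusted p = 0.00336, limma). *Nr4a1* did not pass the threshold, with a median of 0.308 FPKM at 2C (0 to 9.66) and 2.54 FPKM at 8C (0 to 5.32), a difference of 0.70 ± 0.34 (adjusted p = 0.0623). At 2C, 6 of 16 embryos were at 0 and 5 of 16 had at least 1 FPKM, whereas 11 of 16 had at least 1 FPKM at 8C.

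**Figure D2:**
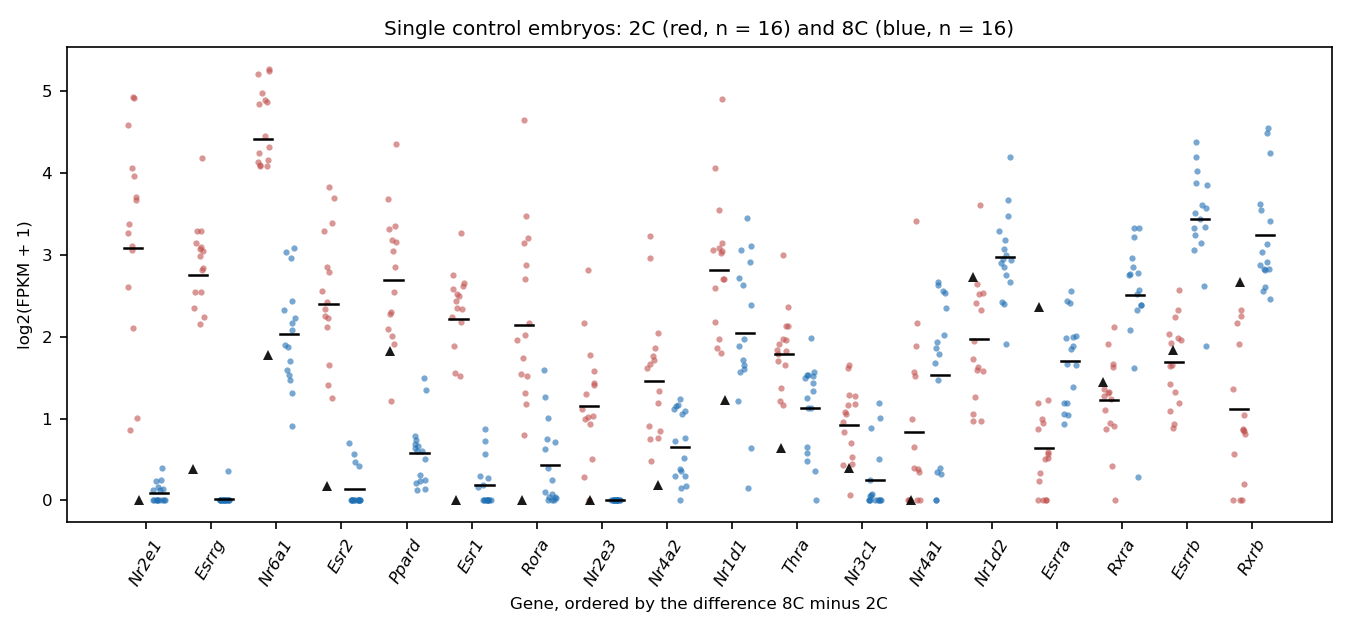
log2(FPKM + 1) of the 18 tested members in single control embryos at 2C (red, n = 16) and 8C (blue, n = 16); each point is 1 embryo, horizontal lines are group means, and the black triangle is the library labelled 2C whose column name gives 4C. With all libraries, *Esrrg* is the only receptor whose 2C embryos (at least 0.300 FPKM) all lie above the 8C embryos (at most 0.281 FPKM). Its 2C value of 0.300 FPKM is the black triangle. Without the triangle, the 2C embryos of *Nr6a1*, *Esr1*, *Esr2* and *Nr2e1* also lie above their 8C embryos. The share of all genes without overlap was not counted for that set, so this describes these genes only. *Rxrb* and *Esrrb* lie mostly higher at 8C.

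Without the library named 4C, 17 members were again called and all 17 were shared. Column names mark libraries with editor mRNA as eBE or BE4. The sgRNA-only libraries, which received no editor, were placed with either by library number alone. Each set is called a run here, a word that the column names do not use, and the comparison was repeated within each. Within the eBE run 18 members were called, 16 of them shared with the full set, and *Nr1d1* was not among them (adjusted p = 0.0882, limma). Within the BE4 run, which has no sgRNA group at 2C, 15 were called, 14 of them shared, *Rxra* (adjusted p = 0.146) and *Nr1d1* (adjusted p = 0.144) were lost, and *Nr3c1* was under 1 FPKM on average in each group of that run (at most 0.850 FPKM) and was not tested. The call of *Nr1d1* was also lost without the library with the lowest summed FPKM (adjusted p = 0.0561). Stage markers moved with these changes. The sum over 5 oocyte markers had a median of 1314 FPKM in 2C and 28.9 FPKM in 8C control embryos, and the part of maternal RNA in the members' changes was not tested.

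Pools of NC embryos gave other libraries for the same question, with 2 pools each at 2C, 4C and 8C. The 2C pools belong to another experiment than the 4C and 8C pools, so stage and experiment cannot be told apart. Between 2C and 8C, 7 of 17 tested members fell and 0 rose (30.9% of 11883 genes called, 13% higher and 17.9% lower), and between 2C and 4C, 6 fell and 0 rose (21.6% called, 9.35% higher and 12.3% lower). The 7 were *Esrrg*, *Esr1*, *Esr2*, *Pparg*, *Rora*, *Nr2e1* and *Nr6a1*, and the 6 were the same genes without *Pparg*. All of the 7 but *Nr6a1* passed the filter through the 2C pools alone and so had to lie lower later. Here too the counts describe the tested members and not the family. Of the 7, 6 were also lower in single embryos (85.7% of the 7, 50% of the 12 that fell there), where 43.4% of all genes fell. The share of all genes lower in both sets was not counted.

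In these pools *Nr6a1* was 20.9 and 18.8 FPKM at 2C, 2.99 and 1.06 FPKM at 4C and 4.06 and 2.09 FPKM at 8C. The 4C pools were thus already low, with a change of -2.86 from 2C to 4C (adjusted p = 0.0143, limma) and -2.40 from 2C to 8C (adjusted p = 0.0174). Since the 2C pools are of another experiment, these values cannot date the drop. *Nr2e1* was 4.30 and 4.23 FPKM at 2C, 0.282 and 0 FPKM at 4C and listed at 0 in both 8C pools (adjusted p = 0.0110 at 4C and 0.00554 at 8C). *Esrrg* was 5.08 and 1.75 FPKM at 2C and listed at 0 in all 4 NC pools at 4C and 8C (adjusted p = 0.0211 and 0.0155). *Esr2* was 5.35 and 3.32 FPKM at 2C, 0 and 0.615 FPKM at 4C and 0.538 and 0 FPKM at 8C (adjusted p = 0.0242 and 0.0168). Each of these receptors was already low at 4C. *Esr1* was 3.16 and 1.74 FPKM at 2C, 0 and 0.201 FPKM at 4C and listed at 0 at 8C (adjusted p = 0.0259 and 0.0151). *Rora* was 2.32 and 2.37 FPKM at 2C, 0.317 and 0 FPKM at 4C and 0.148 and 0.485 FPKM at 8C (adjusted p = 0.0312 and 0.0366). *Pparg*, the adipocyte receptor, was 1.47 and 0.838 FPKM at 2C and listed at 0 in the 4C and 8C pools (adjusted p = 0.0459 at 8C). With 2 pools a group these calls are fragile: with either 4C or either 8C pool left out, 0 members were called in the comparison concerned.

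Between 4C and 8C, 0 of 11 tested members were called in the NC pools, and 0 had an unadjusted p under 0.05 (limma; of 10476 genes, 0% were called and 7.41% had an unadjusted p under 0.05). The receptors that were high at 8C were already present at 4C. *Nr1d2* was 7.38 and 10.9 FPKM at 4C and 9.85 and 4.30 FPKM at 8C. *Esrrb* was 4.58 and 0.606 FPKM at 4C and 10.95 and 4.26 FPKM at 8C, which overlap. *Rxrb* was 3.61 and 1.43 FPKM at 4C and 4.87 and 3.90 FPKM at 8C. The median width on either side of a 95% interval was 1.32 log2 units in this comparison. At that width a smaller change would not reach even an unadjusted p under 0.05, and a call needs a larger one.

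**Figure D3:**
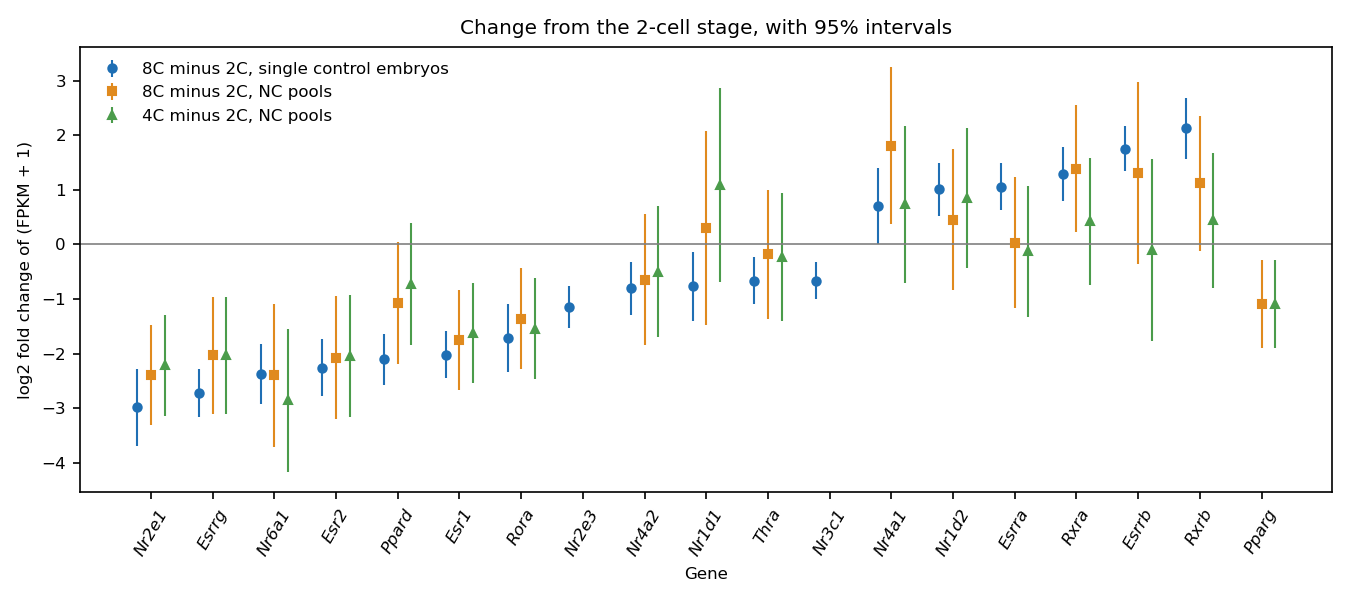
Difference of log2(FPKM + 1) from 2C (vertical axis) of each tested member in single control embryos and in NC pools, with 95% intervals as bars; points of receptors listed at 0 at the later stage are fitted values and no bounds. *Nr6a1*, *Nr2e1*, *Esrrg*, *Esr1*, *Esr2* and *Rora* have intervals below 0 in all 3 comparisons.

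Most of the other receptors showed no detectable change after depletion of the 4 targets, and neither did most genes. Across the perturbations, 1 member was called in 1 comparison, *Nr4a1* at 8C after *Nr5a2* KD, where 2.75% of all genes were called. In the other KD and editing comparisons the share was at most 0.282% in the fits without a replicate block. For 4KD it was 0%, although mean *Nr5a2* went from 28.7 to 5.40 FPKM at 8C, so missing calls do not single out the receptors. NR4A1 (NUR77) binds DNA as a monomer through an extended hexamer. The promoter windows of its family are shown because they share a feature that the list did not use. All 3 NR4A genes hold 4 copies of TGACG, the core of a cyclic AMP response element, counted on both strands. The windows lie at chr15:101266596-101266895 (plus strand) for *Nr4a1*, chr2:57123954-57124253 (minus strand) for *Nr4a2* and chr4:48045055-48045354 (plus strand) for *Nr4a3* (RefSeq, GRCm38.p6), and the capitals mark TGACG or its reverse complement.
Nr4a1: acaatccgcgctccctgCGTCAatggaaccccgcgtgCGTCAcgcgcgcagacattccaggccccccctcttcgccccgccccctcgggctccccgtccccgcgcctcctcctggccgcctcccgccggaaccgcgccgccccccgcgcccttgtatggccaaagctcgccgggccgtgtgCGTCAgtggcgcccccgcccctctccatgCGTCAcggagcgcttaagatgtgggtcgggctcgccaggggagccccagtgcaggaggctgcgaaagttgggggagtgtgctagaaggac
Nr4a2: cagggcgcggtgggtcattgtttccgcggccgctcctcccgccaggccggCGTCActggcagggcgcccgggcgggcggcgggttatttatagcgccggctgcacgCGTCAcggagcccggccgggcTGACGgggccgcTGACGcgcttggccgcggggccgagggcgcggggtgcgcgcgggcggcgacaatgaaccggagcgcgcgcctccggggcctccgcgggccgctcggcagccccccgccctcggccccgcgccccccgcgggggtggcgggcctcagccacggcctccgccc
Nr4a3: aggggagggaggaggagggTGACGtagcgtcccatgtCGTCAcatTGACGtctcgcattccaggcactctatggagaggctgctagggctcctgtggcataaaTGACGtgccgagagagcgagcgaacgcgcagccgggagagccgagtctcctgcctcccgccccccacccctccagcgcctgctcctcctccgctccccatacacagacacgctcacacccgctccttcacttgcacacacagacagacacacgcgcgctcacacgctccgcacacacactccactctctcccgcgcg
At least 4 copies were found in 76 of 32851 RefSeq promoter windows (0.231%) and, of the 49 member windows, in 3, those of the NR4A genes. The limit of 4 equals the count in these windows themselves, so the share is a description and not a test. TGACG also lies within TGACGTCA, and at least 1 copy was in 20.8% of all windows and 12 of the 49. The NR hexamer AGGTCA was in 16.3% of all windows and in 9 of the 49, and the NR5A-type extended site TCAAGGTCA was in 0.423% of all windows and in 0 of the 49. The absence of these letters from a window of this length says nothing about NR5A2 binding to the genes.

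The 2 NC pools of the single-KD experiment held 5.58 and 5.49 FPKM of *Nr4a1*, and the 2 *Nr5a2* KD pools 0 and 0.213 FPKM. In units of the step between the lowest values of the gene these were 32 and 45 steps against 0 and 1, so the KD values sit at the floor of what the libraries could record. The groups did not overlap, which held downward for 33.1% of all genes in this comparison. The change was -2.57 ± 0.51 (SE; 95% interval -3.68 to -1.46; adjusted p = 0.0233, limma), where 2.75% of 10163 genes were called, 2.39% in the lower direction, and *Nr4a1* was the only one of 11 tested members called. The median change over all genes was -0.22, and with median-ratio scaling the value was -2.40 (adjusted p = 0.0262). The call did not survive the loss of any of the 4 pools: without NC replicate 1 or 2 the adjusted p was 0.155 or 0.199, and without KD replicate 1 or 2 it was 0.0992 or 0.101, with changes from -2.43 to -2.71.

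The other KD groups of that experiment share the same NC pools. *Nr4a1* was 0 and 1.62 FPKM after *Rarg* KD, 3.29 and 1.32 FPKM after *Nr1h3* KD and 2.50 and 3.80 FPKM after *Nr2c2* KD, every pool being below both NC pools. Of all genes, 19.6%, 18.9% and 33.9% were lower without overlap in these 3 comparisons. For *Rarg* KD the difference was -2.01 (unadjusted p = 0.00202, adjusted p = 0.942, limma). After 4KD at 8C *Nr4a1* was listed at 0 in both pools, compared with 2.12 and 3.90 FPKM in their own NC pools (adjusted p = 0.428). At 4C it was listed at 0 in both 4KD pools and was 2.46 and 0 FPKM in NC.

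In the 3KD experiment the NC pools of *Nr4a1* disagreed (3.93 and 0.347 FPKM). With *Nr5a2* left out of the siRNA mixture, *Nr4a1* was 1.29 and 2.14 FPKM. The mixtures that contained *Nr5a2* siRNA gave 1.32 and 0.217 FPKM (*Rarg* spared), 5.50 and 0.114 FPKM (*Nr1h3* spared) and 3.74 and 0.116 FPKM (*Nr2c2* spared). Thus *Nr4a1* was close to or above the higher NC pool in 2 pools depleted of *Nr5a2*. Replicate 2 was the lower in the NC group and in each of the *Nr5a2*-depleted groups, but not where *Nr5a2* was spared. At 2C, where *Nr4a1* was 0.251 and 0 FPKM in NC and 0 and 0.836 FPKM after *Nr5a2* KD, it was too low to be tested.

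Base editing of *Nr5a2* did not lower *Nr4a1* detectably. In 14 single 8C embryos given BE and sgRNA it ranged from 0 to 5.64 FPKM (median 1.46), overlapping the 16 controls (0 to 5.32, median 2.54), with a difference of -0.25 (95% interval -0.88 to 0.39, adjusted p = 0.842, limma). That interval cannot be set against the -2.57 seen after siRNA. The 16 controls averaged 2.50 FPKM of *Nr4a1*, while the NC pools of the single-KD experiment held 5.58 and 5.49 FPKM. Even a full loss would thus give a smaller change here than -2.57. The embryos, the controls and the means of depletion differ as well.

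**Figure D4:**
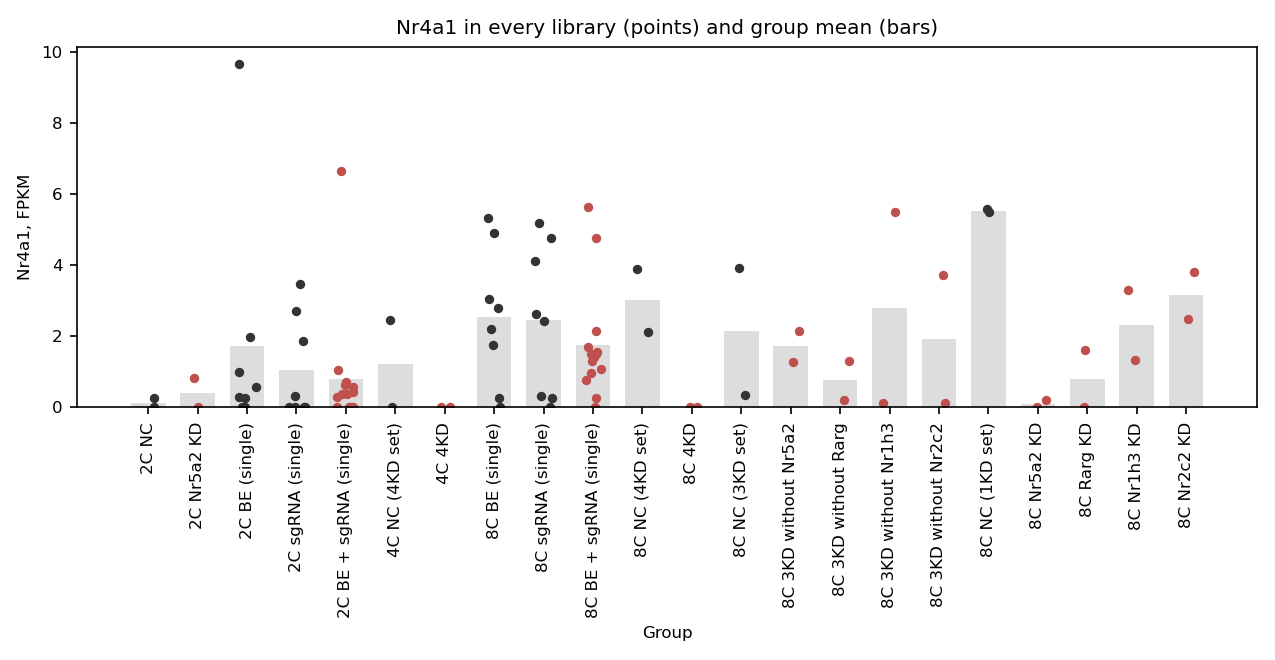
*Nr4a1* FPKM (vertical axis) in every library (points; red for KD or BE + sgRNA, black for their controls) and the group mean (bars). At 8C the *Nr5a2* KD pools (0 and 0.213 FPKM) and the 4KD pools (0 in each) lie at the floor, while 3KD pools given *Nr5a2* siRNA spread from 0.114 to 5.50 FPKM.

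Stage markers differed between the same pools. The oocyte sum was 34.3 to 40.6 FPKM in the NC and 86.0 to 133 FPKM in the *Nr5a2* KD pools. The sum over 5 markers of 8-cell embryos was 261 to 336 FPKM in the NC and 75.2 to 92.4 FPKM in the KD pools. According to the study, *Nr5a2* KD itself impaired the activation of genes of this stage, pluripotency and trophectoderm genes among them. A lower sum over the 8-cell markers can therefore be an effect of the KD and does not show a younger stage. The part of developmental stage in the level of *Nr4a1* was not tested.

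Among the remaining members none was called after any KD or editing (limma). In *Nr5a2* KD at 8C the next largest difference was *Nr1i3* (constitutive androstane receptor), with means of 0.237 FPKM in NC and 2.13 FPKM after KD, a difference of 1.32 ± 0.54 (adjusted p = 0.226). The receptors that lead at 8C were not called. *Esrrb* was 7.51 and 7.16 FPKM in NC and 8.86 and 6.53 FPKM after *Nr5a2* KD. *Nr1d2* was 5.96 and 6.31 FPKM in NC and 11.1 and 7.26 FPKM after KD. *Rxrb* was 6.09 and 11.5 FPKM in NC and 5.87 and 4.73 FPKM after KD. The median width on either side of a 95% interval was 1.05 log2 units with 2 pools a group. At that width a smaller difference would not reach even an unadjusted p under 0.05. A call needs the adjusted p and so a larger difference, and *Nr1i3* at 1.32 was not called. For *Rarg*, *Nr1h3* and *Nr2c2* KD, 0 of 11 tested members were called (backgrounds of 0.00984%, 0.00984% and 0.0787%), and 1, 0 and 0 had an unadjusted p under 0.05 (3.76%, 2.92% and 4.19% of all genes), the 1 being *Nr4a1*.

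For 4KD, which at 4C left 17.6 FPKM of *Nr5a2* and 8.35 FPKM of *Nr1h3* in replicate 2 (3.98 and 1.61 FPKM in replicate 1), 0 of 11 tested members were called at 4C or at 8C, and 0 differed between the stages in their response (limma; 0% of all genes in each). An unadjusted p under 0.05 was reached by 1 member at 4C (*Esrrb*, 4.58 and 0.606 FPKM in NC and 6.43 and 10.3 FPKM after 4KD, a difference of 1.61, adjusted p = 0.850), by 1 at 8C (*Nr4a1*) and by 0 in the test between stages, compared with 5.82%, 7.48% and 2.47% of all genes. *Nr6a1* was 4.06 and 2.09 FPKM in the 8C NC pools and 1.07 and 1.31 FPKM after 4KD, a pair that did not overlap (19.2% of all genes were lower without overlap) and that was not called.

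The 3KD groups gave 0 called members of 13 tested against NC (limma). The backgrounds were 0% where *Nr5a2* was spared, 0.0565% where *Rarg* was spared, 0.00941% where *Nr1h3* was spared and 0% where *Nr2c2* was spared. The contrast of the 3 mixtures with *Nr5a2* siRNA against the mixture without it called 0 members on a background of 0.282%. There *Rxra* had the lowest p: it was 7.61 and 3.04 FPKM when *Nr5a2* was spared and 1.26 to 2.00 FPKM in the 6 pools in which it was depleted, a difference of -1.21 (adjusted p = 0.379). *Rxra* was 2.76 and 1.32 FPKM in the NC pools of that experiment, so the *Nr5a2*-depleted pools lay within or near the NC values. Over the 4 contrasts with NC and this one, an unadjusted p under 0.05 was reached by 0, 1 (*Ppard*), 1 (*Nr2f2*), 0 and 1 (*Rxra*) members, compared with 2.36%, 6.25%, 6.95%, 7.37% and 10.1% of all genes. The pools of this experiment pair by replicate number, which these fits ignore. With that number as a block, the 4 contrasts with NC called 0, 45, 35 and 65 of 10626 genes. The contrast between mixtures then called 262 genes, compared with 30 without the block. The members called remained 0 in each.

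In the 3KD experiment *Nr1d1* split by replicate number. It was 17.5 to 37.2 FPKM in the 5 pools numbered replicate 1 and 1.12 to 7.54 FPKM in the 5 pools numbered replicate 2, whatever siRNA they had received, and the highest value in the 44 other 8C libraries was 12.5 FPKM. The 2 series of pools carry different runs of library numbers, and the part of the series in the level of this clock repressor was not tested.

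At 2C, *Nr5a2* KD called 0 of 17 tested members, with 0 at an unadjusted p under 0.05 (limma; of 11958 genes, 0.0167% were called and 4.67% had an unadjusted p under 0.05). *Nr6a1* was 20.9 and 18.8 FPKM in NC and 19.2 and 18.1 FPKM after KD. *Nr2e1* was 4.30 and 4.23 FPKM in NC and 6.09 and 5.10 FPKM after KD. All tested members lay between -0.38 (*Esrra*) and 0.51 (*Esrrg*), with a median width on either side of a 95% interval of 1.27 log2 units.

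The single edited embryos gave narrower intervals. At 8C, BE with sgRNA called 0 of 10 tested members against both control groups (0.164% of 9760 genes called), with differences from -0.29 (*Rxrb*) to 0.55 (*Nr1d1*), 0 at an unadjusted p under 0.05 (10.8% of all genes) and a median width on either side of the 95% interval of 0.48 log2 units (limma). *Esrrb* in these embryos ranged from 4.24 to 30.5 FPKM (median 12.4) and *Nr6a1* from 0.938 to 7.30 FPKM (median 3.77), where the controls ran from 2.69 to 19.7 FPKM and from 0.880 to 7.46 FPKM. The lowest *Esrrb* and the highest *Nr6a1* were in the libraries named 4C, without which the edited embryos ran from 4.92 to 30.5 FPKM and from 0.938 to 5.43 FPKM. Without these libraries 0 members were called (0 of 9629 genes). At 2C, 0 of 19 tested members were called (0.00805% of 12420 genes called), and 1 had an unadjusted p under 0.05, as had 11.6% of all genes (*Nr4a2*, a difference of -0.61, adjusted p = 0.429). The test of a difference between the stages in the response called 0 of 19 (0.0385% of 12991 genes called), with 2 at an unadjusted p under 0.05 (*Nr1d1*, 1.16, and *Nr4a2*, 0.76) compared with 9.68% of all genes.

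**Figure D5:**
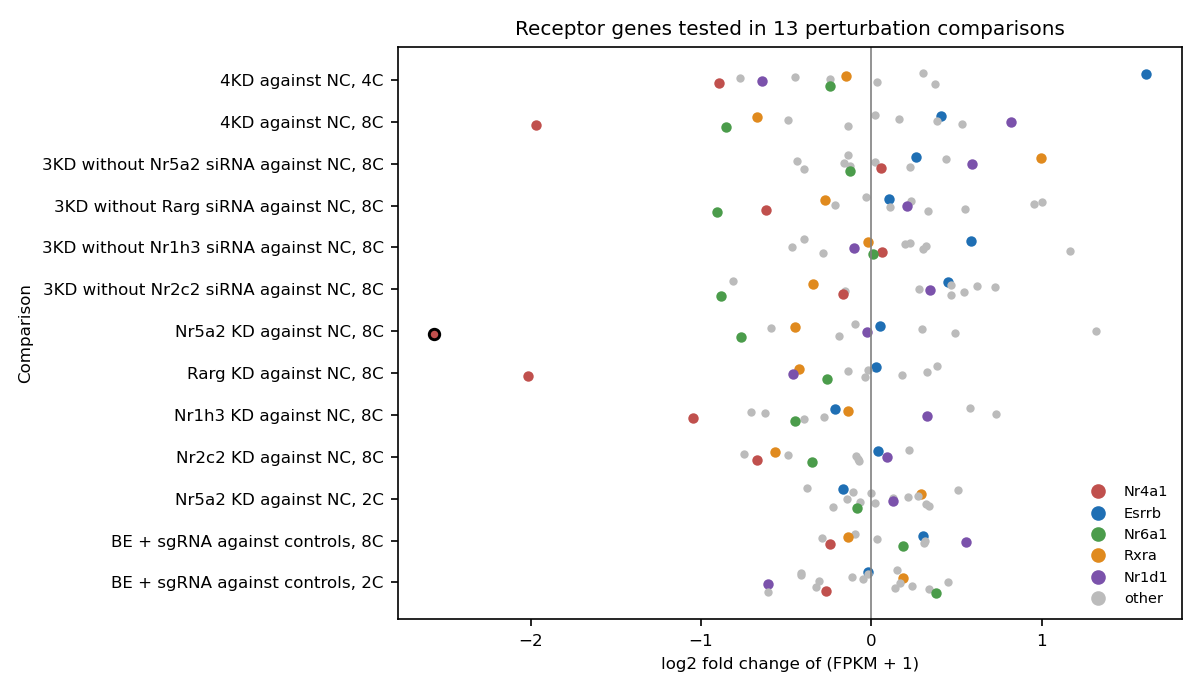
Difference of log2(FPKM + 1) from the controls (horizontal axis) in 13 KD or editing comparisons (rows); each point is 1 tested member, 5 of them coloured, and a black ring marks an adjusted p under 0.05. The single ring is *Nr4a1* after *Nr5a2* KD at 8C (-2.57).

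The 16 members with a mean under 1 FPKM in all 22 groups were *Nr3c2*, *Pgr*, *Rxrg*, *Thrb*, *Ppara*, *Nr1h4*, *Vdr*, *Nr1i2*, *Rorb*, *Hnf4a*, *Hnf4g*, *Nr2f1*, *Nr2f6*, *Nr4a3*, *Nr0b1* and *Nr0b2*. They include the bile acid receptor (*Nr1h4*), the vitamin D receptor (*Vdr*) and both members without a DNA-binding domain, which act as corepressors of other receptors, among them NR5A2. *Hnf4g* was above 0 in 1 of the 92 libraries, *Nr0b1* in 3 and *Nr0b2* in 8. *Ppara* and *Nr1h4* were the least silent of these, above 0 in 46 and 43 libraries. *Nr0b2* reached a mean of 0.992 FPKM in the 2C NC pools and *Nr1h4* one of 0.957 FPKM after *Rarg* KD. Because depth is known only relatively, a value of 0 here means that the gene is listed at 0 and not that it is silent. *Nr1i3* and *Nr2f2* passed 1 FPKM in some group without being called, with highest group means of 2.14 and 1.74 FPKM.

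The receptors act through coregulators, and 23 of them (13 coactivators and 10 corepressors) were followed as well. In single control embryos, of 19 tested, 4 rose and 10 fell between 2C and 8C (limma, same background of 72.6%). The largest decreases were in the coactivators *Ncoa2* (18.1 to 0.814 FPKM, a change of -3.24 ± 0.26, adjusted p = 3.97e-13) and *Ncoa6* (33.7 to 3.52 FPKM, -2.77 ± 0.25, adjusted p = 8.91e-12), the ligand-dependent corepressor *Lcor* (-2.10 ± 0.20, adjusted p = 4.53e-11) and the coactivator *Ncoa1* (-2.01 ± 0.33, adjusted p = 1.91e-06). The arginine methyltransferase *Prmt1* rose by 1.97 ± 0.32 (adjusted p = 1.91e-06), and the other 3 that rose, named after their values were seen, were *Gps2*, *Hdac3* and *Carm1*. In the NC pools 18 were tested. Between 2C and 8C, 1 rose (*Hdac3*) and 4 fell (*Ncoa1*, *Ncoa2*, *Ncoa6* and *Sin3a*), where 13% of all genes were higher and 17.9% lower. Between 2C and 4C, *Hdac3* rose and *Ncoa2* and *Ncoa6* fell, where 9.35% of all genes were higher and 12.3% lower. After KD or editing, 0 of the 17 to 19 tested coregulators were called in any comparison, where at most 2.75% of all genes were called.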

How the data were processed

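RNA-seq of 92 libraries (32 pools, 60 single embryos) was used, and 21 further samples of the series were not used here. The authors trimmed paired-end Smart-seq2 reads, aligned them to mm9 with TopHat and deposited 1 FPKM value per gene and library from Cufflinks. The submitters' processing notes also list CASAVA 1.8, Bowtie2 2.2.2, MACS 1.4.2 and bedtools 2.29.0 for the series. FPKM are not counts, so limma 3.58.1 (R 4.3.3) was run on log2(FPKM + 1) with a mean for each group, moderated variances with a trend, genes with a mean of at least 1 FPKM in at least 1 group, and Benjamini-Hochberg adjustment over all genes tested, and an adjusted p under 0.05 was called. Python 3.11.15 (numpy 2.4.6, pandas 2.3.3) was used for the rest. The edgeR test of the study's methods needs counts and was not run. Its limits (0.01 for the adjusted p, 2 for the log2 fold change), a pseudocount of 0.1, no filter, a filter at 5 FPKM, median-ratio scaling, a replicate block, narrower fits, runs of libraries and left-out libraries were alternatives. The members and lists were chosen with earlier results of these data known. Members with a group mean of at least 5 FPKM or called in a comparison are described by library, all others by ranges. The fit was tested on simulated data.

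Low values of *Nr4a1*, *Nr1d1* and *Nr2e1* (30, 11 and 21 values under 10 steps) were all within 0.1 of a whole step, which gave relative depth. Correlations of the deviations of libraries with the same replicate number were over 0.1 in all 10 pairs of the 3KD experiment (0.278 to 0.513), where the replicates carry 2 runs of library numbers, so the numbers pair those pools. The blocked fit called 0 members there, as did the fit without the block, but it called more of all genes, up to 262 of 10626. Promoter windows were matched to RefSeq (GRCm38.p6) by symbol for 34 of the 37 members.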

Additional observations from a re-analysis of the deposited data

Results flagged for a closer look

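Of 52 sets of 8 single embryos tested for an outlying library (members with a group mean of at least 1 FPKM), 6 held a value that stood apart. Chance gives such a value in about 1 of 20 sets if values spread normally. The rate for these FPKM, which hold values at 0, was not computed. The sets share their libraries and are not independent. In the 2C BE mRNA group, *Nr4a1* was 9.66 FPKM in replicate 5 (nearest of the other 7, 1.97 FPKM, a gap of 0.796 of the range), *Nr2e3* was 6.00 FPKM in replicate 4 (nearest 2.42 FPKM, 0.642) and *Nr1d2* was 11.1 FPKM in replicate 2 (nearest 5.26 FPKM, 0.577). In the 2C sgRNA group, *Rora* was 23.9 FPKM in replicate 4 (nearest 8.23 FPKM, 0.656) and *Esrra* was 4.15 FPKM in replicate 8, the library named 4C (nearest 1.34 FPKM, 0.678). In the 8C sgRNA group *Rxra* was low in replicate 7, at 0.219 FPKM (nearest 4.22 FPKM, 0.610).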

How the results depend on the processing

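The call of *Nr4a1* after *Nr5a2* KD at 8C held with a pseudocount of 0.1 (-4.99, adjusted p = 0.0485), with median-ratio scaling and with only its own groups in the fit. The number of members called fell from 1 to 0 with no filter (adjusted p = 0.0933), with a filter at 5 FPKM (0.0518) and under the limits of the methods, and was 0 to 0 with 1 pool left out, where the lone pool is assumed to vary like the other groups. In single control embryos the 17 members called between 2C and 8C became 11 with the filter at 5 FPKM and 7 under the limits of the methods. In NC pools the 7 members called between 2C and 8C became 1 with the filter at 5 FPKM, 1 under the limits of the methods and 0 to 5 with 1 pool left out, and the 6 between 2C and 4C became 1, 0 and 0 to 5, and 2 with only the compared groups in the fit. The higher filter and the stricter limits admit fewer genes by construction. No direction reversed under any alternative run.

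With the replicate number as a block, 1 member was again called after *Nr5a2* KD at 8C and 17 in single embryos between 2C and 8C, while 5 were called between 2C and 8C and 5 between 2C and 4C in NC pools, *Pparg* and *Rora* being lost. The numbers do not pair libraries outside the 3KD experiment: correlations were over 0.1 in 2 of 6 pairs of the 4KD set (-0.297 to 0.346), in 2 of 10 of the single-KD set (-0.0403 to 0.141) and in 0 of 1 at 2C (0.00429). Groups of 2 pools and unknown absolute depth limit what can be seen of receptors near 1 FPKM. The alternatives by editor run and without the library with the highest cumulus marker sum were chosen after seeing the data.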
